A study of Mus musculus with 12 samples.

Results

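Adipocytes differentiated in culture from mouse embryonic stem (ES) cells were compared with mouse epididymal white fat, abbreviated eWAT. The comparison used 6 of the 12 arrays of the series, 3 of ES cell adipocytes and 3 of eWAT, and covered 19938 genes. Each gene was represented by its brightest probe set among those annotated with exactly 1 gene symbol. The other 6 arrays, 3 of adipocytes from the fibroblast line 3T3-L1 and 3 of adipocytes from primary mouse embryonic fibroblasts (PMEF), entered the same fit and showed where ES cell adipocytes differed from other cultured fat cells. The eWAT came from healthy wild-type mice, and each group was made in 3 biological replicates. The sources used here name no allele or drug in any group. They give no ES cell line, strain, age, culture protocol or number of animals per sample. Sex is not stated, though epididymal fat is a depot of males. Cell origin cannot be told apart from the other ways in which a culture differs from a tissue.

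Fat cells store triglyceride in a droplet coated by perilipins, release it as fatty acids when hormones call for fuel, and secrete hormones such as leptin and adiponectin. The nuclear receptor PPARG and the factor C/EBP alpha switch this programme on. Fat tissue holds fat cells together with vessels, macrophages, lymphocytes, progenitors and a mesothelial cover, while cultured ES cells are pluripotent and can give rise to many lineages beside the intended one.

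All values are log2 intensities, on which a difference of 1 is a 2-fold difference. Medians over the genes analysed were 6.31 to 6.33 in the ES cell adipocyte arrays and 6.32 to 6.33 in the eWAT arrays. Pearson correlations computed over genes, a description only since genes are not replicates, were 0.997 within ES cell adipocytes and 0.932 to 0.940 between ES cell adipocytes and eWAT. Within eWAT, replicate 1 correlated at 0.992 with both other arrays, which correlated at 0.996 with each other, and it stood lowest of the 3 in macrophage, mast cell and interferon transcripts. Genes were called at a Benjamini-Hochberg adjusted p under 0.05 from limma over all genes, and rose and fell below mean called and higher or lower in ES cell adipocytes. In all 9911 genes were called (49.7%), 5750 higher (28.8%) and 4161 lower (20.9%) in ES cell adipocytes. Higher genes made up 58.0% of calls, but 43.8% after centring on reference genes without Hprt, which moved the median of all genes by -0.105, and 94.0% with Hprt, itself 5.14 lower in ES cell adipocytes, among them, which moved it by 0.769. Below, centring on the reference genes includes Hprt. Without Hprt no called gene named here changed direction, and the list medians quoted under that centring kept their sign. Called differences of 2-fold or more were found in 875 genes upward (4.39%) and 1168 downward (5.86%). No array of either group reached the other's range for 57.9% of genes.

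The regulators of fat cell identity were near tissue level in ES cell adipocytes. Pparg, the master receptor of fat cell formation, was at 11.05, 11.13 and 11.02 in ES cell adipocytes and at 11.13, 11.28 and 11.30 in eWAT. Cebpa, its partner factor, was at 10.64, 10.69 and 10.50 in ES cell adipocytes and at 10.56, 10.26 and 10.49 in eWAT. The groups overlapped for Cebpa and touched at 11.13 for Pparg, and neither was called (limma adjusted p = 0.105 for Pparg and 0.19 for Cebpa), with 95% intervals of the difference of -0.34 to 0.01 for Pparg and -0.05 to 0.40 for Cebpa. Ebf1, an early adipogenic factor, differed by 0.06 ± 0.07 (SE) and was not called either. Of 19 adipogenic transcription factors, 5 rose and 6 fell, beside 28.8% and 20.9% of all genes. These factors had a median difference of -0.15 (0.62 with arrays centred on the reference genes), against 0.036 over all genes. The risers were led by Ppargc1b, a coactivator of mitochondrial genes, at 1.29 ± 0.16 and Klf5 at 1.09 ± 0.09. The fallers were led by Klf15, a glucocorticoid-induced factor, at -1.39 ± 0.10 and Mlxipl, the glucose-sensing activator of lipid synthesis genes, at -1.36 ± 0.08.

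**Figure D1:**
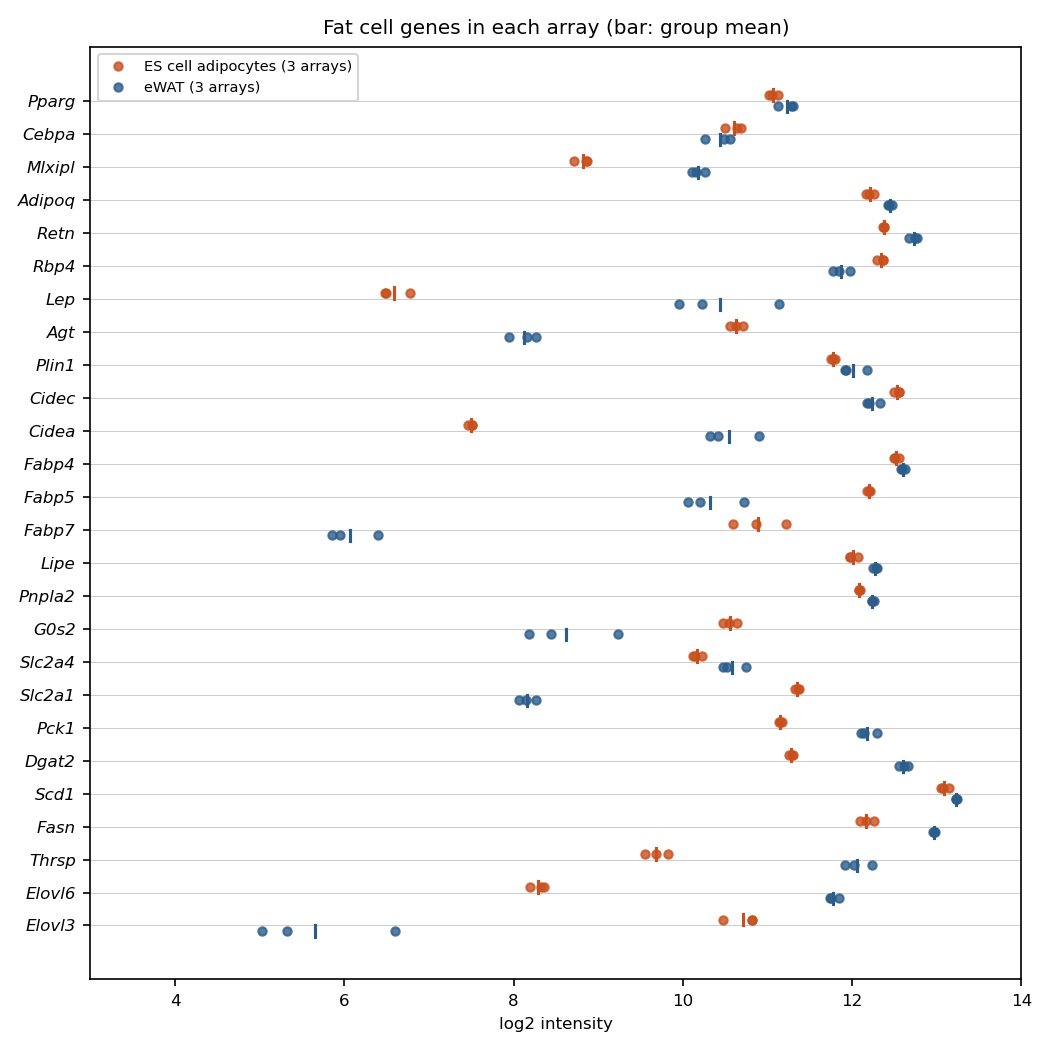
Log2 intensity (horizontal axis) of fat cell genes in each of the 3 ES cell adipocyte arrays and the 3 eWAT arrays, with bars at the group means. Pparg, Cebpa, Fabp4 and Scd1 lie close together in both groups, whereas Elovl3, Fabp7, Slc2a1 and Agt lie to the right and Lep, Cidea and Elovl6 to the left in ES cell adipocytes.

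Among secreted products, the transcripts of adiponectin, resistin and the retinol carrier RBP4 were close to tissue level, and that of leptin was far lower. Adipoq, encoding adiponectin, was at 12.20, 12.26 and 12.17 in ES cell adipocytes and at 12.47, 12.42 and 12.44 in eWAT. Retn, encoding resistin, was at 12.38, 12.36 and 12.38 in ES cell adipocytes and at 12.67, 12.77 and 12.74 in eWAT. Both groups lay in the brightest range of the array, did not overlap, and differed by -0.23 ± 0.07 for Adipoq and -0.36 ± 0.07 for Retn (limma adjusted p = 0.0143 and 0.000671), small falls that turned positive with arrays centred on the reference genes. Without ES replicate 3 the Adipoq call was lost (adjusted p = 0.0528). Lep, the satiety hormone of fat cells, was at 6.48, 6.49 and 6.78 in ES cell adipocytes and at 11.14, 10.23 and 9.96 in eWAT. Its highest ES value lay over 3 units below its lowest eWAT value, a 14.5-fold fall (-3.86 ± 0.26, adjusted p = 4.13e-08). Rbp4 rose by 0.47 ± 0.11 (adjusted p = 0.00258). Agt, the angiotensin precursor, was at 10.63, 10.71 and 10.56 in ES cell adipocytes against 8.16, 8.27 and 7.95 in eWAT, a 5.68-fold rise (adjusted p = 1.33e-10). Apln, encoding the peptide apelin, rose by 2.27 ± 0.08, and Nrg4, a growth factor released by fat, fell by 2.08 ± 0.08. Of 18 adipokines 7 rose and 9 fell, beside 28.8% and 20.9% of all genes. The adipokine list had a median of -0.13 (0.64 with arrays centred on the reference genes).

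Of the droplet coat genes 1 differed strongly, and most others lay near tissue level. Plin1, the main perilipin of white fat, was at -0.23 ± 0.08 (limma adjusted p = 0.0262, positive with arrays centred on the reference genes) and Cidec, which fuses droplets in white fat, at 0.29 ± 0.07 (0.00206). The Plin1 call was lost without any single ES array or without eWAT replicate 1 (adjusted p between 0.0505 and 0.109). Cidea is the relative of Cidec in brown and beige fat. It was at 7.51, 7.51 and 7.46 in ES cell adipocytes and at 10.90, 10.32 and 10.42 in eWAT. That 8.32-fold fall (adjusted p = 3.08e-10) was the only one of at least 2-fold among the 16 droplet genes. In this list 6 rose and 5 fell, beside 28.8% and 20.9% of all genes. Hilpda, a droplet protein induced by hypoxia, rose by 1.18 ± 0.11, and Cav1, the caveola protein abundant in fat cells, differed by -0.03 ± 0.07 without being called.

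In lipolysis Pnpla2 and Lipe lay near tissue level, Mgll was lower, and several regulators differed. Pnpla2, the first lipase of triglyceride, was at 12.08, 12.09 and 12.08 in ES cell adipocytes and at 12.26, 12.23 and 12.23 in eWAT, and its difference of -0.16 ± 0.06 missed the threshold (limma adjusted p = 0.056). Lipe, the hormone-sensitive lipase, was at -0.27 ± 0.08 (positive with arrays centred on the reference genes), and Mgll, which cleaves monoglycerides, fell by 0.93 ± 0.09 (-0.16 and not called under that centring). G0s2, which inhibits the first lipase, that of Pnpla2, was at 10.64, 10.48 and 10.55 in ES cell adipocytes and at 9.24, 8.44 and 8.18 in eWAT, without overlap. It rose 3.82-fold (adjusted p = 1.62e-06), and Abhd5, the coactivator of the same lipase, rose by 0.61 ± 0.10. Npr1, the receptor through which natriuretic peptides drive lipolysis, fell by 2.60 ± 0.09, and Hcar1, a lactate receptor that restrains it, fell by 2.15 ± 0.08. Of 14 lipolysis genes 2 rose and 9 fell, beside 28.8% and 20.9% of all genes. The lipolysis list had a median of -0.41 (0.36 with arrays centred on the reference genes).

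Fatty acid synthesis was uneven, with most lipogenic genes lower and single elongases and desaturases higher. Scd1, the desaturase that makes oleate, was at 13.15, 13.05 and 13.07 in ES cell adipocytes and at 13.23, 13.24 and 13.23 in eWAT (-0.14 ± 0.06, limma adjusted p = 0.065), near the top of the range of the arrays. Fads2, a desaturase of polyunsaturated fatty acids, rose by 1.66 ± 0.09. Elovl6, the elongase that turns palmitate into stearate, was at 8.36, 8.33 and 8.19 in ES cell adipocytes and at 11.74, 11.75 and 11.84 in eWAT. Elovl3, an elongase of very long chains that is prominent in brown fat, ran the other way, at 10.82, 10.48 and 10.82 in ES cell adipocytes and at 6.60, 5.32 and 5.03 in eWAT. Elovl6 fell 11.2-fold (adjusted p = 9.15e-13) and Elovl3 rose 33.3-fold (6.8e-09), the largest rise among all genes whose arrays did not overlap, and neither gene had overlapping groups. Elovl3 stood as high in the other cultures, at a mean of 10.73 in 3T3-L1 and 10.60 in PMEF adipocytes, and ES cell adipocytes differed from their mean by 0.04 ± 0.25 (adjusted p = 0.925). Thrsp, a lipogenic regulator, differed by -2.38 ± 0.11, Acacb, the mitochondrial acetyl-CoA carboxylase, by -2.36 ± 0.09 and Fasn, the fatty acid synthase, by -0.80 ± 0.07, all called, but centring on the reference genes left Fasn at -0.03 (adjusted p = 0.715). Of 18 genes of the pathway 4 rose and 11 fell, 8 of them at least 2-fold, with a median of -0.80 (-0.03 under that centring). In fatty acid oxidation 4 of 18 genes rose and 6 fell, and in triglyceride assembly 3 of 16 rose and 6 fell. Of all genes 28.8% rose and 20.9% fell. Dgat1 differed by 0.05 ± 0.08 without being called, whereas Dgat2, the acyltransferase that handles newly made fatty acids, fell by 1.33 ± 0.08 and Pck1, which supplies glycerol, by 1.03 ± 0.17, though Pck1 was at -0.26 and not called (adjusted p = 0.117) under that centring.

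Among fatty acid carriers the main fat cell form was near tissue level and 3 others were higher. Fabp4, the main carrier of fat cells, was at 12.55, 12.50 and 12.51 in ES cell adipocytes and at 12.59, 12.62 and 12.58 in eWAT, and its difference had a 95% interval of -0.21 to 0.06 (limma adjusted p = 0.342). Fabp5, the second carrier of fat, was at 12.20, 12.18 and 12.21 in ES cell adipocytes and at 10.72, 10.06 and 10.20 in eWAT, a 3.67-fold rise (5.56e-08), and Fabp3, the carrier of heart and muscle, rose by 1.62 ± 0.13. Fabp7, a carrier best known from the developing brain, was at 10.59, 11.22 and 10.86 in ES cell adipocytes and at 5.95, 6.40 and 5.85 in eWAT. Its groups lay over 4 units apart, a 28.4-fold rise (9.29e-11). Fabp7 had a mean of 5.05 in 3T3-L1 and 6.22 in PMEF adipocytes, so ES cell adipocytes also lay 5.26 ± 0.15 above the other cultures (3.09e-11). Gpihbp1, the capillary anchor of lipoprotein lipase, fell by 3.14 ± 0.07, and Cd36, a fatty acid receptor, was at -0.27 ± 0.06, positive with arrays centred on the reference genes.

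Glucose transport combined a modest deficit of the insulin-responsive carrier with a large excess of the basal carrier. Slc2a4, encoding GLUT4, was at 10.23, 10.15 and 10.12 in ES cell adipocytes and at 10.75, 10.52 and 10.47 in eWAT (-0.41 ± 0.09, limma adjusted p = 0.00169, positive with arrays centred on the reference genes). Slc2a1, encoding GLUT1, was at 11.37, 11.36 and 11.33 in ES cell adipocytes and at 8.06, 8.15 and 8.26 in eWAT. Slc2a1 rose 9.16-fold (1.93e-12), with no overlap for either carrier, and Slc2a3, a high-affinity carrier of neurons, rose by 1.88 ± 0.13. The receptor gene Insr and the docking gene Irs1 were not called, at 0.12 ± 0.08 and -0.15 ± 0.06. Of 21 insulin pathway genes 7 rose and 10 fell, beside 28.8% and 20.9% of all genes. The insulin list had a median of -0.15 (0.62 with arrays centred on the reference genes).

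Thermogenic and mitochondrial genes did not move as a block. Of 19 thermogenic and beige fat genes 5 rose and 10 fell, with a median of -0.97, where 28.8% of all genes rose and 20.9% fell. Ucp1, the uncoupling protein, was at 7.44, 7.30 and 7.74 in ES cell adipocytes and at 10.05, 8.05 and 7.45 in eWAT. Replicate 3 of eWAT lay inside the range of the ES arrays and eWAT replicate 1 far above all others, and the difference was not called (-1.02 ± 0.47, limma adjusted p = 0.0902). Otop1, a proton channel of brown fat, fell by 3.19 ± 0.21, and Ebf2, a brown fat selector, fell by 2.45 ± 0.10. Ppargc1a, the regulator of mitochondrial biogenesis, rose by 1.09 ± 0.09. Among 23 genes of the respiratory chain and citric acid cycle 10 rose and 3 fell, with a median of 0.16, and the range of list means over arrays was 10.91 to 10.95 in ES cell adipocytes and 10.71 to 10.91 in eWAT. A pair of cytochrome oxidase subunits of muscle and brown fat parted. Cox7a1 was at 11.44, 11.32 and 11.47 in ES cell adipocytes and at 9.74, 8.98 and 9.08 in eWAT, and Cox8b at 9.18, 8.72 and 9.15 in ES cell adipocytes and at 11.88, 11.40 and 11.54 in eWAT. Cox7a1 rose 4.43-fold and Cox8b fell 6.02-fold (5.1e-08 and 7.03e-09), and Cox8b was lower at least 2-fold than in each of the other groups.

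Branched-chain amino acid breakdown and sterol metabolism moved in opposite directions by count, where 28.8% of all genes rose and 20.9% fell. Enzymes that break down branched-chain amino acids fell in 12 of 19 cases and rose in 3, with a median of -0.27 (0.50 with arrays centred on the reference genes). Ivd, the leucine enzyme isovaleryl-CoA dehydrogenase, fell by 1.67 ± 0.09 and Mccc1 of the same path by 1.13 ± 0.09, whereas Bckdhb, a subunit of the dehydrogenase that commits these amino acids, rose by 1.20 ± 0.08. In cholesterol synthesis and uptake 10 of 18 genes rose and 4 fell, with a median of 0.53. The list median against eWAT was larger in the other cultures, at 0.79 in 3T3-L1 and 0.83 in PMEF adipocytes. Sqle, the squalene epoxidase, rose by 1.19 ± 0.11 and Lss, the cyclase after it, by 1.09 ± 0.09. Relative to the mean of the other cultures 12 of the 18 sterol genes were lower and 3 higher in ES cell adipocytes, where 38.5% of all genes were called, 19% lower and 19.5% higher. The number of lower genes in that contrast was 3779, and 6361 with arrays centred on their medians.

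**Figure D2:**
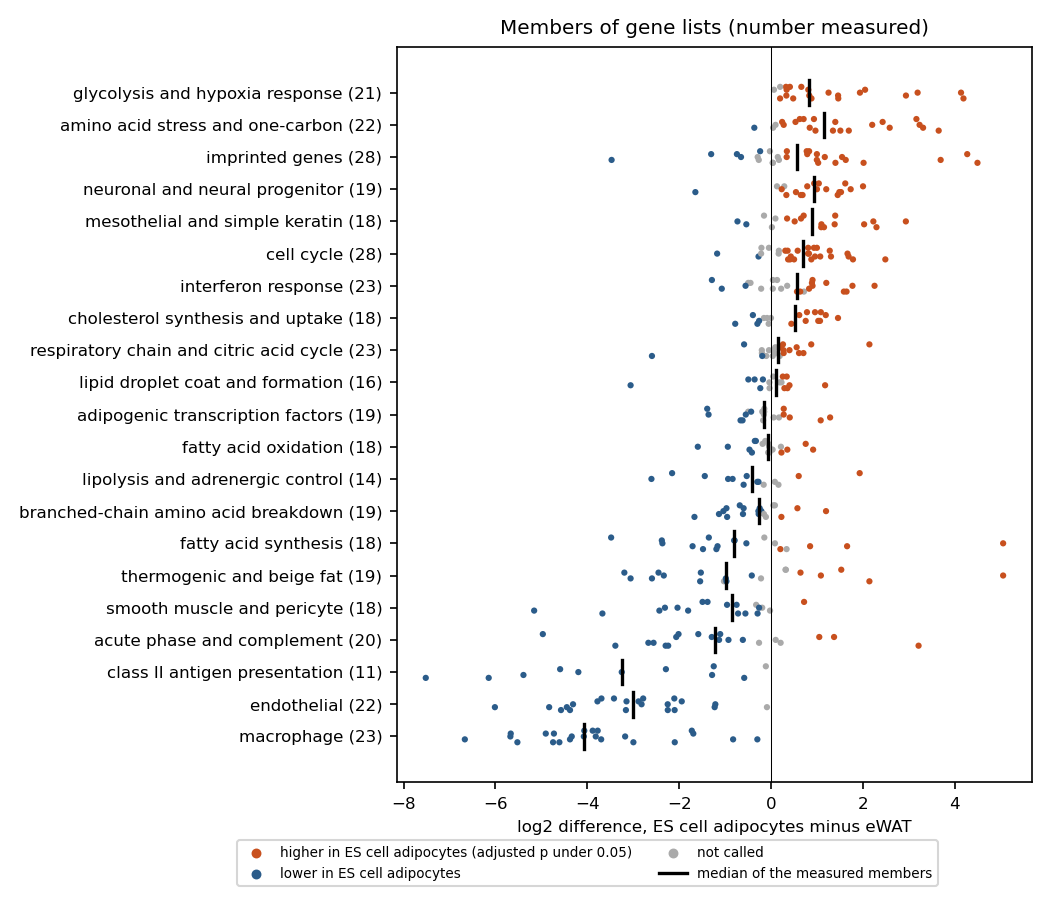
Log2 difference of ES cell adipocytes minus eWAT (horizontal axis) for each measured member of 21 gene lists, coloured by call, with a bar at the list median. Hypoxia, amino acid stress, neuronal and mesothelial genes lie mostly right of 0 and endothelial, macrophage and class II genes left of it. The negative medians of adipogenic factors, fatty acid oxidation, lipolysis and branched-chain amino acid breakdown turn positive with arrays centred on the reference genes. They stay negative, at -0.26, -0.16, -0.52 and -0.37, when Hprt is left out of that centring.

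Genes of glycolysis and the response to low oxygen were higher in ES cell adipocytes than in tissue. Cells sense oxygen through prolyl hydroxylases that mark the factor HIF for destruction, and when oxygen falls HIF binds a short core in target promoters and raises glucose transport, glycolysis and lactate export. Egln3, a HIF prolyl hydroxylase that is itself induced by HIF, was at 11.58, 11.66 and 11.50 in ES cell adipocytes and at 7.53, 7.65 and 7.14 in eWAT. Aldoc, a glycolytic aldolase, was at 9.56, 9.66 and 9.55 in ES cell adipocytes and at 5.48, 5.32 and 5.39 in eWAT. Slc16a3, the lactate exporter MCT4, was at 9.0, 9.22 and 9.02 in ES cell adipocytes and at 6.08, 6.08 and 6.26 in eWAT. None of these groups overlapped, and the rises were 17.7-fold for Egln3, 18.3-fold for Aldoc and 7.68-fold for Slc16a3 (limma adjusted p = 8.74e-10, 9.15e-13 and 1.89e-11). Ak4, a mitochondrial adenylate kinase induced by hypoxia, was at 10.79, 10.73 and 10.73 in ES cell adipocytes and at 5.84, 6.01 and 5.82 in eWAT, the second largest rise of all by fold (29-fold, 1.58e-11), and a dimmer second probe set of Ak4 differed by 2.66. Of 21 genes of the list 19 rose and none fell, 9 of them at least 2-fold, with a median of 0.84, where 28.8% of all genes rose. The 2 members not called were Ndrg1 and Pfkp, at 0.20 ± 0.13 and 0.07 ± 0.07. List means over arrays were 10.39 to 10.47 in ES cell adipocytes and 9.09 to 9.10 in eWAT. The rise was not shared by the other cultures in the same size. The median against eWAT was 0.16 in 3T3-L1 and -0.20 in PMEF adipocytes. Relative to the mean of those cultures 21 of 21 members were higher in ES cell adipocytes and none lower, against 19.5% and 19% of all genes. Not every member exceeded each culture. Hk2 and Pfkp averaged 8.86 and 9.31 in ES cell adipocytes but 9.31 and 9.75 in 3T3-L1 adipocytes. Adm averaged 9.20 in ES cell adipocytes but 9.44 in PMEF adipocytes. The oxygen supply of the cultures is not given in the sources used here, and its part in these values was not tested.

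The promoters of 3 of these genes are shown because they hold the HIF core, with the matches in capitals. Car9, a carbonic anhydrase of the cell surface, was chosen after its values were seen and was 1.46 higher in ES cell adipocytes. The sequences are from RefSeq on GRCm38.p6, run from 250 bases before to 50 bases after the gene's start and are written 5′ to 3′ on the gene's strand.
Egln3 (chr12:54203825-54204124, minus strand): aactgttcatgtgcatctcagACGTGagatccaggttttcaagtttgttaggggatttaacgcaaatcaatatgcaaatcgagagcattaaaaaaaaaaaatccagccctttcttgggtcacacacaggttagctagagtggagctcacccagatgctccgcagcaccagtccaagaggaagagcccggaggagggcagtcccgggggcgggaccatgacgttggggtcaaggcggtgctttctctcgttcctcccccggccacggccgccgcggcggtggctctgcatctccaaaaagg
Slc16a3 (chr11:120948817-120949116, plus strand): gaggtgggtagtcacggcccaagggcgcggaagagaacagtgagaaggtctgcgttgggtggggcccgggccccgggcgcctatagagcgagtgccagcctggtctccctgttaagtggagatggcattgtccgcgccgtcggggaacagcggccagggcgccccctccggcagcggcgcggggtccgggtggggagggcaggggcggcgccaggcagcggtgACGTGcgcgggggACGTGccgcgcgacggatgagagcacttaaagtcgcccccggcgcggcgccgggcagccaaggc
Car9 (chr4:43506776-43507075, plus strand): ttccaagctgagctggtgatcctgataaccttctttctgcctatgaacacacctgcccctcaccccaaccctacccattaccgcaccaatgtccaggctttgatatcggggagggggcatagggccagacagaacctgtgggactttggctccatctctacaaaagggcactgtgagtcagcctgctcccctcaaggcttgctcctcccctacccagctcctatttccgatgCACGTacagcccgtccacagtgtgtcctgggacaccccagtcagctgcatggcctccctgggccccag
The core was searched as ACGTG or GCGTG on both strands, overlapping matches included. It was in 15 of the 20 list promoters in the table (75.0%) and in 51.9% of all 15614 promoters, so a match in a single promoter is common.

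Genes of a second stress list, that of the response to amino acid shortage through the factor ATF4, were also mostly higher than in eWAT. ATF4 raises amino acid transporters, serine and one-carbon enzymes and the regulators DDIT3 and TRIB3. Aldh1l2, a mitochondrial folate enzyme, was at 8.78, 8.86 and 8.70 in ES cell adipocytes and at 4.95, 5.25 and 5.17 in eWAT. Slc7a11, the cystine importer, was at 7.73, 7.49 and 7.51 in ES cell adipocytes and at 4.24, 4.33 and 4.21 in eWAT. Slc7a5, a carrier of large neutral amino acids, was at 9.73, 9.77 and 9.72 in ES cell adipocytes and at 5.93, 6.72 and 6.85 in eWAT. All 3 were far above tissue on every array, with rises of 3.65 ± 0.08, 3.32 ± 0.10 and 3.24 ± 0.17 (limma adjusted p = 1.93e-12, 2.13e-11 and 3.78e-09), and Mthfd2, the fetal and tumour folate enzyme of mitochondria, rose by 3.17 ± 0.17. Of 22 members 19 rose and 1, Phgdh at -0.36 ± 0.14, fell, with a median of 1.16. Of all genes 28.8% rose and 20.9% fell. The Phgdh fall was lost without ES replicate 2, ES replicate 3 or eWAT replicate 1 (adjusted p = 0.183, 0.131 and 0.178) and turned positive with arrays centred on the reference genes. Relative to the mean of the other cultures 4 of the 22 genes were higher and 5 lower in ES cell adipocytes, against 19.5% and 19% of all genes. Here the ES cell adipocytes lay between the other cultures, whose medians against eWAT were 2.03 in 3T3-L1 and 0.51 in PMEF adipocytes. The plot of both stress lists by group shows this order. ATF4 activity and amino acid supply were not measured, and their part in these values was not tested.

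The promoters of 3 members are shown for the ATF4 element, searched as TGATGNAA on both strands with matches in capitals. Trib3 and Chac1, at 2.21 and 1.40 above eWAT, were chosen after their values were seen. Trib3 encodes a pseudokinase and Chac1 an enzyme that degrades glutathione.
Trib3 (chr2:152344011-152344310, minus strand): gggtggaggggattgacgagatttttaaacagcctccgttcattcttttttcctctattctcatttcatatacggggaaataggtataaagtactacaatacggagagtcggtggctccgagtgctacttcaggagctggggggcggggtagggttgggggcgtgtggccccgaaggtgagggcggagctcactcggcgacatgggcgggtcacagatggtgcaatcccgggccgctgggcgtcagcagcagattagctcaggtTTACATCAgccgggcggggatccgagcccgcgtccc
Chac1 (chr2:119350992-119351291, plus strand): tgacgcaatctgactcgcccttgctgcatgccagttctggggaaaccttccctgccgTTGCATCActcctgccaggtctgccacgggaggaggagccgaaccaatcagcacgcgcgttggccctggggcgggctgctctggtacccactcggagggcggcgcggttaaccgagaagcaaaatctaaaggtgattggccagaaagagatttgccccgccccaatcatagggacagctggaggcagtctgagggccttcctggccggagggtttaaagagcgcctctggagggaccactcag
Slc7a11 (chr3:50443564-50443863, minus strand): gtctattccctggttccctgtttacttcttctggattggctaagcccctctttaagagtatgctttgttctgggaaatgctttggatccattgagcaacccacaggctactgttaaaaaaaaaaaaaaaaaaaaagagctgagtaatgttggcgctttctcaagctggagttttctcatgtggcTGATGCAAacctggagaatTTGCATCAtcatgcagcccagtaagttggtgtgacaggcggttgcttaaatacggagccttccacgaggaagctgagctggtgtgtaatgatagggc
The element was in 6 of the 18 list promoters in the RefSeq table (33.3%) and in 3.2% of all promoters.

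**Figure D3:**
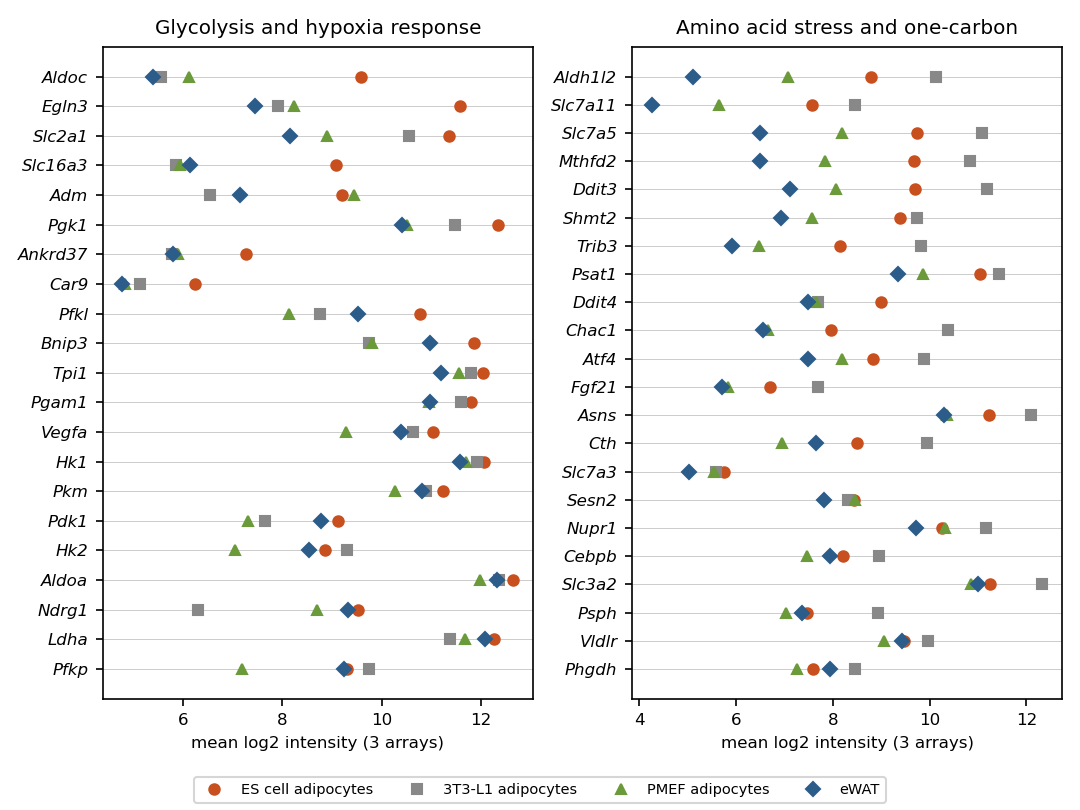
Mean log2 intensity (horizontal axis, 3 arrays each) of every measured member of the glycolysis and hypoxia list (left) and the amino acid stress list (right) in ES cell, 3T3-L1 and PMEF adipocytes and eWAT. On the left the ES cell adipocytes lie farthest right for Aldoc, Egln3 and Slc16a3, and on the right 3T3-L1 adipocytes lie beyond them for Aldh1l2, Slc7a11 and Slc7a5.

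Interferon-stimulated genes differed with the tissue array they were set against. Mx2, an antiviral GTPase, was at 7.75, 8.09 and 7.69 in ES cell adipocytes and at 5.09, 5.73 and 5.94 in eWAT (2.26 ± 0.18, limma adjusted p = 1.86e-07). Ifit3, an antiviral RNA-binding factor, was at 11.06, 11.20 and 11.02 in ES cell adipocytes and at 8.17, 10.03 and 9.75 in eWAT (1.78 ± 0.44, 0.00399). Both sets of arrays were apart, but eWAT replicate 1 lay well below the other tissue arrays for Ifit3. Of 23 members 11 rose and 3 fell, with a median of 0.57, where 28.8% of all genes rose and 20.9% fell. Without eWAT replicate 1 the counts were 10 and 6. The fallers included Psmb8, the immunoproteasome subunit, at -1.07 ± 0.12. Relative to the mean of the other cultures 20 of 23 members were higher and none lower in ES cell adipocytes. In that contrast, which does not use eWAT, 19.5% of all genes were higher and 19% lower. Ifih1, a sensor of double-stranded RNA, was 0.04 ± 0.15 from eWAT and not called, yet 2.06 above the other cultures (3.59e-08). Ifit1, a relative of Ifit3, rose by 1.65 ± 0.41. The promoters of Ifit3 and Ifit1, 250 bases before to 50 after the start in RefSeq on GRCm38.p6, are shown for the interferon response element, searched as GAAA, any 2 bases and GAAA on both strands with matches in capitals.
Ifit3 (chr19:34583279-34583578, plus strand): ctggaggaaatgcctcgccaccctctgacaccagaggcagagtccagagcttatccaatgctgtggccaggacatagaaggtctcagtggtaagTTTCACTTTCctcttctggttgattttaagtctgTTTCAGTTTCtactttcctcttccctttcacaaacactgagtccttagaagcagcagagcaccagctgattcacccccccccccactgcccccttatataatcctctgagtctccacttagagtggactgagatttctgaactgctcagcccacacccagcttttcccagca
Ifit1 (chr19:34640639-34640938, plus strand): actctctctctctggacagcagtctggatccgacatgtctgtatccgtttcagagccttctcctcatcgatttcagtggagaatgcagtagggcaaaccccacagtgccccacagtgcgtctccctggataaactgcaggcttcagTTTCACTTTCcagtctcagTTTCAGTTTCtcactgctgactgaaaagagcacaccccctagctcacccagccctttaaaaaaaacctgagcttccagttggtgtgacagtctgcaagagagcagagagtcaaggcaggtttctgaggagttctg
It was in 8 of the 16 list promoters in the table, 4 of them among the 6 risers with a promoter there, and in 3.3% of all promoters. Close relatives such as the Ifit genes can share probe signal, which the files do not resolve.

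The transcripts of macrophages, other leukocytes, vessels and pericytes were lower in ES cell adipocytes. The median level of the list members there was 4.88 for macrophages and 5.63 for endothelium, against 9.04 and 9.02 in eWAT, and 6.59 for smooth muscle and pericytes, against 8.09 in eWAT. In bulk RNA, fewer cells of a type and less RNA per cell cannot be told apart. H2-Aa, a class II antigen-presenting chain, was at 3.69, 3.95 and 3.77 in ES cell adipocytes and at 11.10, 11.37 and 11.49 in eWAT. Lyz2, the lysozyme of macrophages, was at 4.74, 5.04 and 4.72 in ES cell adipocytes and at 11.12, 11.54 and 11.83 in eWAT. Emcn, an endothelial sialomucin, was at 3.65, 4.08 and 4.25 in ES cell adipocytes and at 10.31, 10.16 and 9.54 in eWAT. These were falls of 183-fold, 102-fold and 64.5-fold (limma adjusted p = 9.15e-13, 2.16e-11 and 2.46e-11), whose size is rough because the ES values lie near background. For scale, 17 epididymis and testis genes that were not called lay at 2.65 to 5.53 in ES cell adipocytes and at 2.80 to 5.74 in eWAT.

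All 23 macrophage genes fell, with a median of -4.06, where 20.9% of all genes fell. Their list mean was 4.89 to 4.91 over ES arrays and 8.15, 8.81 and 9.13 over eWAT replicates 1, 2 and 3. Adgre1, the F4/80 antigen, was at 4.23, 3.87 and 4.08 in ES cell adipocytes and at 8.78, 9.73 and 10.24 in eWAT. In the endothelial list 21 of 22 genes fell and none rose, with a median of -3.01, the exception being the lymphatic factor Prox1 at -0.09 ± 0.10, which was as dim in tissue. In class II presentation 10 of 11 fell, in the lymphocyte and natural killer list 18 of 22, and in the mast cell and neutrophil list 13 of 17 with 1 riser. Cpa3, a mast cell protease, fell by 5.0 ± 0.30. Of 18 smooth muscle and pericyte genes 14 fell and 1 rose. Rgs5, a pericyte gene, fell by 5.16 ± 0.13, and among the members not called were the contractile genes Tagln and Des, at -0.19 ± 0.14 and -0.02 ± 0.10. Of chemokines and inflammatory mediators 15 of 26 fell and 3 rose, with a median of -0.46 (0.31 with arrays centred on the reference genes), and of acute phase and complement genes 14 of 20 fell and 3 rose. Lcn2, an iron-scavenging acute phase protein, ran against that count, at 10.26, 10.29 and 10.17 in ES cell adipocytes and at 6.30, 7.64 and 7.12 in eWAT (3.22 ± 0.24, adjusted p = 9.55e-08). It was higher still in 3T3-L1 adipocytes, with a mean of 12.48, and at 6.32 in PMEF adipocytes.

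**Figure D4:**
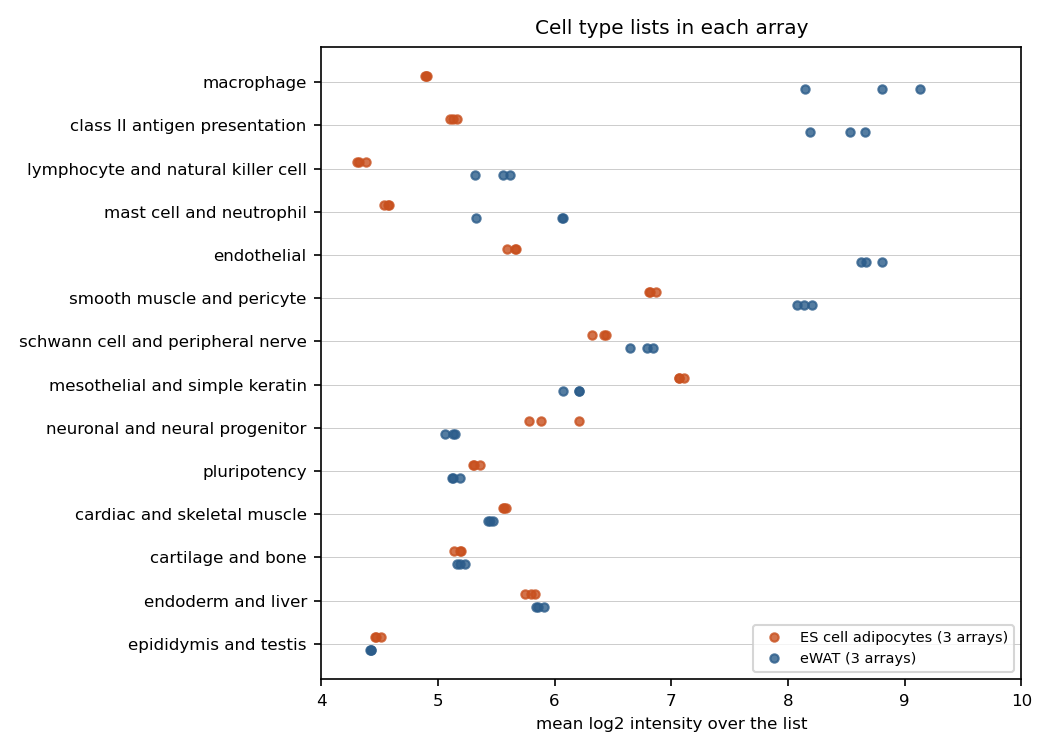
Mean log2 intensity (horizontal axis) over the measured genes of each cell type list in the 3 ES cell adipocyte arrays and the 3 eWAT arrays. Macrophage, class II, endothelial and pericyte lists lie far to the left in ES cell adipocytes, and the mesothelial, neuronal and pluripotency lists lie to the right of eWAT.

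Neuronal markers were higher in the ES cell cultures, at low to middle levels. In the neuronal and neural progenitor list 16 of 19 genes rose and 1 fell, beside 28.8% and 20.9% of all genes, with a median of 0.94. Relative to the mean of the other cultures 14 were higher and none lower, against 19.5% and 19% of all genes. Stmn2, a growth cone protein, was at 7.33, 8.25 and 7.59 in ES cell adipocytes and at 5.96, 6.37 and 6.25 in eWAT. Gfap, the intermediate filament of astrocytes, was at 6.68, 7.19 and 6.87 in ES cell adipocytes and at 4.72, 5.10 and 4.90 in eWAT. For both genes the ES arrays were all higher and replicate 2 highest, with rises of 1.53 ± 0.21 for Stmn2 and 2.01 ± 0.12 for Gfap (limma adjusted p = 3.08e-05 and 1.75e-08). The list mean shared that order, at 5.78, 6.21 and 5.88 in ES replicates 1, 2 and 3, against 5.06 to 5.15 in eWAT. Fabp7, the brain carrier described above, also peaked in ES replicate 2, and its part in the carrier result was not tested. Sox2, shared by neural progenitors and pluripotent cells, rose by 1.62 ± 0.12, and Nes, a progenitor filament also made by vessels, fell by 1.64 ± 0.14.

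Pluripotency genes were low in both groups. Pou5f1, the factor OCT4, was at 4.31, 4.18 and 4.15 in ES cell adipocytes and at 3.69, 3.72 and 3.51 in eWAT, and Nanog at 5.42, 5.42 and 5.36 in ES cell adipocytes and at 5.10, 5.28 and 5.18 in eWAT. Both were called higher (limma adjusted p = 0.000291 and 0.0385), Nanog no longer without any single ES array, eWAT replicate 1 or eWAT replicate 3 (0.0579 to 0.123), but lay in the range of the uncalled epididymis and testis genes in both groups. Of 23 pluripotency genes 9 rose and 3 fell, with a median of 0.21, and without ES replicate 2 only 5 rose. Mesothelial and simple keratin genes rose in 13 of 18 cases and fell in 2, with a median of 0.90. Of all genes 28.8% rose and 20.9% fell. The mesothelial rise was not particular to ES cell adipocytes, since the list median against eWAT was 1.13 in PMEF adipocytes. It was -0.13 in 3T3-L1 adipocytes. Upk1b, a uroplakin of mesothelium, was at 7.72, 7.38 and 7.70 in ES cell adipocytes and at 4.55, 4.57 and 4.86 in eWAT (2.94 ± 0.12, 1.99e-10). Krt19, a simple keratin, rose by 2.23 ± 0.16 and Wt1, a mesothelial and progenitor factor, by 1.40 ± 0.09. Muscle, cartilage and endoderm lists showed smaller numbers. In cardiac and skeletal muscle 3 of 21 genes rose and none fell, in cartilage and bone 2 of 15 rose and 3 fell, and in endoderm and liver 6 of 18 rose and 2 fell. Alb, the albumin gene, fell by 3.96 ± 0.21.

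Progenitor and matrix genes moved in both directions. Pdgfra, the receptor that marks fat progenitors, differed by 0.11 ± 0.13 and was not called, whereas Pi16 and Dpp4, markers of the outer progenitor layer, fell by 2.63 ± 0.09 and 2.22 ± 0.14. Dlk1, the preadipocyte factor that is silenced in mature fat, was at 10.42, 10.37 and 10.56 in ES cell adipocytes and at 6.42, 6.89 and 6.95 in eWAT, a 13-fold rise (limma adjusted p = 2.95e-11). Of 19 preadipocyte genes 6 rose and 10 fell, with a median of -0.23 (0.54 with arrays centred on the reference genes). Of the main fibrillar collagen chains Col1a1 was at 0.05 ± 0.09 and not called, and Col1a2 and Col3a1 were called at -0.22 ± 0.08 and -0.49 ± 0.08, both positive after centring on the reference genes. The Col1a2 call was lost without ES replicate 1 or 2 or eWAT replicate 2 or 3 (adjusted p between 0.0819 and 0.122). Col12a1, a collagen of developing connective tissue, was at 9.16, 9.02 and 9.31 in ES cell adipocytes and at 5.77, 5.75 and 5.78 in eWAT (3.40 ± 0.09, 5.27e-12). Both Col6a1 and Col6a2 of the microfibrillar collagen rose, by 1.14 ± 0.06 and 0.93 ± 0.07. Of 25 collagens 9 rose and 4 fell, and of 26 other matrix genes 11 rose and 7 fell, beside 28.8% and 20.9% of all genes. Mfap4 and Fbn2, both proteins of elastic microfibrils, rose by 3.03 ± 0.09 and 2.46 ± 0.09, and the crosslinking enzyme Lox by 2.14 ± 0.08. Tnxb, a tenascin, fell by 2.24 ± 0.06.

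Fetal growth genes were among the largest rises. Igf2, the imprinted fetal growth factor, was at 11.74, 11.73 and 11.79 in ES cell adipocytes and at 6.83, 7.62 and 7.31 in eWAT, a 22.6-fold rise (limma adjusted p = 4.43e-11). Peg10, an imprinted gene of retroviral origin needed in the placenta, was at 11.97, 11.99 and 12.07 in ES cell adipocytes and at 7.87, 7.70 and 7.64 in eWAT (4.28 ± 0.09, 9.15e-13). Nnat, an imprinted gene of membrane calcium handling, ran the other way, at 7.78, 8.10 and 7.91 in ES cell adipocytes and at 11.24, 11.36 and 11.59 in eWAT. Each of these groups was far apart, and Nnat fell 11.1-fold (3.28e-11). Of 28 imprinted genes 16 rose and 5 fell, where 28.8% of all genes rose and 20.9% fell. Their median was 0.56, beside medians of -0.24 in 3T3-L1 and 1.002 in PMEF adipocytes against the same tissue. Igf1, the postnatal growth factor, was at -0.63 ± 0.13 and turned positive with arrays centred on the reference genes, while the IGF carrier Igfbp3 rose by 2.87 ± 0.21 and Pappa, a protease of IGF carriers, by 2.25 ± 0.13.

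Single Hox genes, which record position along the body axis, differed widely although the family as a whole was called about as often as other genes. Hoxc8 was at 7.69, 7.57 and 7.73 in ES cell adipocytes and at 10.60, 10.61 and 10.33 in eWAT. Hoxc10, which lies farther toward the posterior end of the same cluster, was at 4.33, 4.56 and 4.15 in ES cell adipocytes and at 7.80, 7.69 and 7.77 in eWAT. Hoxb2, an anterior member of another cluster, was at 8.23, 8.24 and 8.18 in ES cell adipocytes and at 6.66, 6.63 and 6.61 in eWAT. Hoxc8 fell by 2.85 ± 0.09 and Hoxc10 by 3.41 ± 0.11, and Hoxb2 rose by 1.58 ± 0.07 (limma adjusted p = 4.42e-11, 2.95e-11 and 5.28e-10), all without overlap. The largest falls after these were in Hoxc9 and Hoxa9, at -2.13 ± 0.11 and -1.85 ± 0.07, and the largest rises in Hoxa2 and Hoxb4, at 0.61 ± 0.13 and 0.60 ± 0.09. In all 8 of 37 Hox genes rose and 11 fell, beside 28.8% and 20.9% of all genes. The same held for the Wnt list, with 12 of 35 genes higher and 6 lower. Sfrp1, a secreted Wnt inhibitor, rose by 3.65 ± 0.17 and Rspo3, a Wnt enhancer, by 2.50 ± 0.12. Bmp4, a ligand that commits mesoderm to fat, rose by 2.37 ± 0.17, and 14 of 36 TGF-beta and BMP genes rose and 14 fell.

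Genes of division and of p53 were higher in the cultures. Of 28 cell cycle genes 21 rose and 2 fell, with a median of 0.70, where 28.8% of all genes rose and 20.9% fell. Cdk1, the mitotic kinase, was at 7.70, 7.80 and 7.59 in ES cell adipocytes and at 5.93, 6.08 and 6.06 in eWAT, and Ccne1, the cyclin of S phase entry, at 8.82, 8.79 and 8.78 in ES cell adipocytes and at 6.46, 6.22 and 6.23 in eWAT. Both groups were apart, with rises of 1.67 ± 0.08 and 2.49 ± 0.08 (limma adjusted p = 1.42e-09 and 2.73e-11), while Mki67, the proliferation antigen, rose by 0.42 ± 0.12. The arrest gene Cdkn2a rose as well, by 1.79 ± 0.12. Relative to the mean of the other cultures 3 cell cycle genes were higher and 10 lower, against 19.5% and 19% of all genes. Of 18 p53 targets 12 rose and 4 fell, with Eda2r at 2.55 ± 0.10, Gadd45a at 1.99 ± 0.14 and the p53 ligase Mdm2 at 1.40 ± 0.08. In antioxidant defence 8 of 24 genes rose and 9 fell, with Hmox1, the heme oxygenase, at 2.95 ± 0.24 and the glutathione peroxidase Gpx1 at -1.79 ± 0.07.

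The housekeeping gene Hprt was near background. Hprt, the X-linked purine salvage enzyme, was at 4.17, 4.57 and 4.60 in ES cell adipocytes and at 9.83, 9.33 and 9.59 in eWAT, a 35.2-fold fall (limma adjusted p = 1.21e-11). Its means were 10.31 in 3T3-L1 and 10.07 in PMEF adipocytes, so only the ES cell arrays were near background. The measured genes beside it in the RefSeq order, Phf6 and Mir450b, were chosen after their values were seen. Phf6 averaged 6.54 in ES cell adipocytes and 6.49 in eWAT, a difference of 0.06 that was not called. Mir450b averaged 1.97 and 1.77, a difference of 0.20 that was not called. It lay below the uncalled epididymis and testis genes in both groups and so could not have shown a fall. Of 19 purine genes 9 rose and 5 fell, where 28.8% of all genes rose and 20.9% fell. Aprt, the adenine salvage enzyme, was among the risers at 1.05 ± 0.08. The Y-linked Kdm5d, a histone demethylase, was at 4.75, 5.04 and 4.62 in ES cell adipocytes and at 7.52, 7.41 and 7.46 in eWAT, a fall of 2.66 ± 0.14, while its Y-linked neighbours in the list, Eif2s3y and Uty, were not called, at 0.02 ± 0.11 and -0.16 ± 0.09. Xist, which coats and silences an X chromosome, lay near background in both groups, at 3.82, 4.20 and 4.08 in ES cell adipocytes and at 3.81, 3.97 and 3.99 in eWAT.

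Some transcripts set ES cell adipocytes apart from the other cultures as well as from tissue. By the criterion of a called difference of at least 2-fold from each of the other 3 groups, 134 genes were higher (0.672%) and 34 lower (0.171%). Derl3, of the disposal of misfolded proteins, was at 9.90, 9.80 and 10.07 in ES cell adipocytes and at 5.85, 5.96 and 6.07 in eWAT. Gkn2, a stomach secretory protein, was at 8.34, 8.69 and 8.27 in ES cell adipocytes and at 4.61, 4.58 and 4.66 in eWAT. Cbr2, a carbonyl reductase, averaged 6.27 ± 0.14 in ES cell adipocytes and 10.62 ± 0.48 in eWAT (SD, n = 3 each). None of the 3 had overlapping groups, and relative to the mean of the other cultures they differed by 4.08 ± 0.09, 3.75 ± 0.11 and -3.45 ± 0.17. They were taken from the genes meeting the criterion, so these differences describe the choice and are no further test of it. Car2, a carbonic anhydrase, Chodl, a membrane lectin, and Nxf3, of the RNA export family, also belonged to the higher set, at 3.99 ± 0.14, 4.19 ± 0.13 and 4.09 ± 0.18 above eWAT. Cyp2e1, an ethanol-metabolising cytochrome, belonged to the lower set, at 5.92, 5.05 and 5.58 in ES cell adipocytes against 12.46, 12.46 and 12.50 in eWAT.

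The remaining gene lists divided as follows, with 28.8% of all genes higher and 20.9% lower. Of 21 clustered protocadherins, adhesion proteins of neurons, 13 rose and 1 fell, and probes can be shared among these near copies. Of 44 mesoderm patterning factors 19 rose and 9 fell, and of 18 genes of the IGF axis 7 rose and 7 fell. Of 32 nuclear receptors 8 rose and 13 fell, of 22 retinoid genes 9 rose and 10 fell, and of 18 circadian clock genes 6 rose and 5 fell. Of 10 Schwann cell genes 1 rose and 5 fell, of 9 red blood cell genes 1 rose and 2 fell, and of 18 epididymis and testis genes 1 rose and none fell. Of 11 sex chromosome genes 3 rose and 1 fell.

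Differences were spread unevenly over chromosomes, in a summary that was added after the data were seen and that leaves out the dimmest 33.3% of genes. On chromosome 11, 649 of 1159 genes rose and 155 fell (56.0% and 13.4%), against 35.5% and 25.4% over all chromosomes but 8 and 11. The median difference on chromosome 11 was 0.303, and the ES arrays were at 0.310, 0.318 and 0.290 relative to the eWAT mean. In 4 consecutive stretches of about equally many genes the medians were 0.364, 0.320, 0.246 and 0.248, all above the 0.067 of all chromosomes but 8 and 11. Over all genes, the dimmest included, the chromosome 11 median was 0.175, with 44.7% of 1566 genes higher and 13.9% lower. In the contrast with the mean of the other cultures 630 genes of chromosome 11 were higher and 97 lower, with a median of 0.254 (0.121 over all genes). Chromosome 8 had a median of 0.226 (0.142 over all genes), but there the 3T3-L1 adipocytes stood at 0.341 and PMEF adipocytes at 0.052 against eWAT, and ES cell adipocytes were 0.036 from the mean of both. Gains of chromosomes 8 and 11 recur in cultured mouse ES cells as a general matter. DNA copy number was not measured in these samples, and its part in the shift was not tested.

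**Figure D5:**
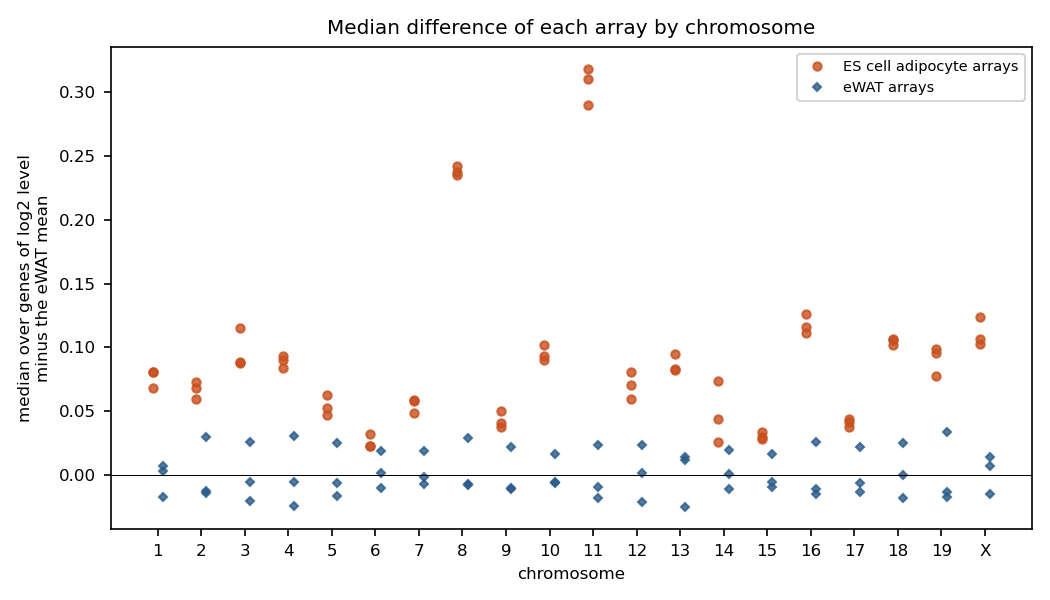
Median over genes of the log2 level minus the eWAT mean (vertical axis) on each chromosome for the 3 ES cell adipocyte arrays and the 3 eWAT arrays, with the dimmest 33.3% of genes left out. The ES arrays stand at 0.290 to 0.318 on chromosome 11 and at 0.235 to 0.242 on chromosome 8, above every other chromosome plotted.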

How the data were processed

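RNA was extracted with TRIzol and converted to biotinylated cDNA with the WT Expression kit, per the labels' protocols. The values are log2 intensities per probe set as deposited by the authors. How the authors corrected background and normalized was not given in the sources used here. Of 35556 probe sets, 21789 carried 1 gene symbol, 1621 several and 12146 none in the platform annotation, and 21698 of the first had an Entrez identifier in RefSeq. The brightest probe set over the 12 arrays stood for each of 19938 genes, of which 999 had more than 1.

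Linear models were fitted with limma 3.58.1 in R 4.3.3 to all 12 arrays with 4 group means, moderated with 8 residual and 4.88 prior degrees of freedom, and Benjamini-Hochberg adjustment ran over all genes at a threshold of 0.05. The fit was tested on simulated data with known changes. The second contrast was ES cell adipocytes minus the mean of 3T3-L1 and PMEF adipocytes. Lists are described by counts and medians, without set tests. ES cell adipocytes and eWAT share replicate numbers, but the deviations of same-numbered arrays correlated at 0.038, 0.015 and 0.008, so the numbers were not taken to pair samples.

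The genes, lists and comparisons were chosen with earlier results of these data known. The text may name the 15 largest rises and falls, in each list the 4 largest called rises and falls and the 3 brightest members not called, the 10 largest in each direction among genes set apart from all other groups, and a fixed set of fat cell, lineage and reference genes. Promoters are from RefSeq. The number of arrays limits the precision, and folds against levels near background are rough.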

Additional observations from a re-analysis of the deposited data

Results flagged for a closer look

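The contrast of ES cell adipocytes with the mean of the other cultures called 38.5% of all genes. Among the fixed set of named genes, 2 also differed from eWAT in the opposite direction to both other cultures. Genes were kept here only if called against eWAT in every culture and called in the contrast with the other cultures. The adjusted p values below were therefore part of the choice and do not test it. Rbp4 was 0.47 above eWAT in ES cell adipocytes but 6.85 below it in 3T3-L1 and 3.14 below it in PMEF adipocytes on the log2 scale, so ES cell adipocytes exceeded the mean of those cultures by 5.46 ± 0.09 (SE, limma adjusted p = 5.52e-13). Hprt was 5.14 below eWAT in ES cell adipocytes but 0.73 above it in 3T3-L1 and 0.49 above it in PMEF adipocytes, a difference of -5.75 ± 0.12 from their mean (limma adjusted p = 3.24e-12). All 3 ES cell adipocyte arrays showed both patterns.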

How the results depend on the processing

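Centring arrays on 6 reference genes, of which Hprt is 1, gave 17547 genes higher and 1116 lower than eWAT, 5817 and 514 of them at least 2-fold, and 19480 higher and 135 lower than the mean of the other cultures. Under it 10 named genes turned positive, Adipoq to 0.54, Cd36 to 0.50, Col1a2 to 0.55, Col3a1 to 0.28, Lipe to 0.50, Igf1 to 0.14, Phgdh to 0.41, Plin1 to 0.54, Retn to 0.41 and Slc2a4 to 0.36, and it moved 85 of the list counts by over 1.5 times, against 15 when Hprt was left out of the centring. Without Hprt no called gene named here changed direction, and the genes lower than the other cultures numbered 2472. With arrays centred on their medians the lower genes numbered 6361. Testing the size against 2-fold with limma's treat gave 387 higher and 731 lower, and testing all probe sets gave 6251 lower. With the replicate number as a block 5634 genes were higher and 4105 lower, and among named genes the call of Nanog alone was lost (adjusted p = 0.0597). Leaving out each array in turn gave 5201 to 5672 higher and 3751 to 4081 lower genes. Quantile normalization, averaged probe sets, the 6 arrays alone, array weights, a trended variance and a filter on dim genes kept the counts of genes called against eWAT within 1.5 times. Low signal limits the folds of genes near background, and the deposited values allow no other background correction.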

Other observations

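The brightest transcripts divided unevenly. Of the 50 genes brightest in ES cell adipocytes, 25 were called higher and 7 lower there, 4 of the risers at least 2-fold. Of the 50 brightest in eWAT, 6 were called higher and 26 lower in ES cell adipocytes, 5 of the fallers at least 2-fold. These sets were chosen on the same arrays, so the direction of each count is partly set by the choice.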
